A study of Mus musculus with 16 samples.

Results

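The 40 Mb of mouse chromosome 6 that begin at 74000000 (build mm9) were followed through 16 lists of promoter contacts. They were chosen by position alone: a listed restriction site was a member if its start lay between these borders. Of the 327988 entries in all lists, 20436 fell in this stretch, 19363 from the Cdca3 viewpoint and 1073 from the Pole viewpoint. No entry was left out for a low value, because the lists hold only sites that the authors called positive.

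The assay was 4C-seq, a form of chromosome conformation capture, which reads out the DNA ligated to 1 chosen anchor, the viewpoint. One anchor was the bidirectional promoter shared by Cdca3, a regulator of cell division, and Usp5, a deubiquitinating enzyme. The other was the bidirectional promoter of Pole, the catalytic subunit of a replicative DNA polymerase, and Pxmp2, a peroxisomal membrane protein. Cells were mouse embryonic fibroblasts (MEFs) taken at E13.5, in the middle of gestation, and grown to passage 4, either Rb1+/+ or Rb1L/L, with 4 numbered MEF pairs of the genotypes at each anchor. The groups were thus Cdca3 Rb1+/+, Cdca3 Rb1L/L, Pole Rb1+/+ and Pole Rb1L/L, 4 libraries each, all from proliferating cells, and no treatment is named. The same pair identifiers occur at both anchors. The labels do not say what links both members of a pair, and p-values below measure only the spread between these libraries. DNA contacts carry no expression values, so the fibroblast label could not be set against markers.

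As background, a promoter meets DNA on its own chromosome (in cis) far more often than DNA elsewhere (in trans), and contact frequency falls with distance. Distant cis contacts are patchy, because chromosomes fold into alternating domains that keep to DNA of their own kind. Rb1 encodes pRb, which restrains entry into S phase, and Rb1L carries mutations in the pocket that holds the LXCXE motif of partner proteins. The title of the series concerns recruitment of condensin II, a complex that compacts chromosomes, by pRb, so the comparison asks whether promoter contacts differ in Rb1L/L cells.

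The Cdca3/Usp5 promoter lies on chromosome 6, on the telomeric side of the 40 Mb. It was taken to lie in a stretch from 122734325 to 125781765 in which no Cdca3 library listed a site. That stretch was picked because it holds the gene's approximate position, taken from general knowledge. The telomeric border of the 40 Mb is thus 8.73 Mb from the near edge of that stretch and the centromeric border 48.7 Mb. The exact anchor position is not marked in the files. For Cdca3 the 40 Mb are therefore cis DNA at middle distance, and for Pole, on chromosome 5, they are trans DNA. The Cdca3 promoter is shown because it stands at the fixed end of every cis contact described here. The sequence is RefSeq's for GRCm38.p6, plus strand, 250 bases before to 50 bases after the gene's start, and capitals mark CATG, the cut site of NlaIII, the second enzyme of the assay.

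Cdca3 promoter: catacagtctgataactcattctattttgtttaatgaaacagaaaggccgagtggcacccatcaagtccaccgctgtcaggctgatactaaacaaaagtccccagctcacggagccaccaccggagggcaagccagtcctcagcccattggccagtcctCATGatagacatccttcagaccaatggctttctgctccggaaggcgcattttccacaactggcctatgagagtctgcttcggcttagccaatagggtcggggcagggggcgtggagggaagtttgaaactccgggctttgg

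This window of 300 bases held 1 CATG and 0 matches to AAGCTT, the site of HindIII, the first enzyme, on either strand (both motifs read the same on both strands and do not overlap each other). Among 32851 RefSeq promoters of that length, 61.1% held CATG and 7.45% held AAGCTT. The contacted sites themselves are given by mm9 position, since no mm9 sequence or gene annotation was used here.

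Without read counts, the number of sites a library lists is the only measure of its yield. Cdca3 libraries listed 15802 to 39650 sites, of which 5265 to 9622 were in cis, and Pole libraries listed 6485 to 17522. Rb1L/L replicate 1 had the lowest yield at both anchors.

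In cis, the 40 Mb held close to the same share of the contacts in all 8 libraries. Rb1+/+ replicates 1 to 4 listed 1834, 2089, 2760 and 2768 sites there, and Rb1L/L replicates 1 to 4 listed 1607, 2866, 2802 and 2637. As a share of each library's cis sites these were 29.7%, 30.1%, 29.6% and 29.6% in Rb1+/+ and 30.5%, 29.8%, 29.8% and 31.8% in Rb1L/L. Site numbers differed widely between libraries while the shares stayed within a narrow band, and the genotypes overlapped. The mean share was 29.8% ± 0.240 for the Rb1+/+ and 30.5% ± 0.923 for the Rb1L/L libraries (SD, n = 4 each). The difference of 0.696 percentage points had a 95% interval from -0.337 to 2.14 (exact two-sided permutation test, p = 0.171, higher in 3 of 4 pairs). With 4 libraries against 4 this exact permutation test cannot go below p = 0.0286. The difference fell to 0.268 without Rb1L/L replicate 4, and came to -0.00658 with only sites whose deposited value was below 0.01, and to -0.635 as a share of all listed sites.

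Called regions covered a minority of the 40 Mb in every Cdca3 library. They covered 14.3, 15.4, 18.4 and 17.7 Mb in Rb1+/+ replicates 1 to 4, and 12.5, 16.6, 19.2 and 18.4 Mb in Rb1L/L replicates 1 to 4. The 3 libraries with the fewest cis sites, Rb1L/L replicate 1 and Rb1+/+ replicates 1 and 2, were also the 3 with the least covered length. Genotype means were 16.4 ± 1.91 and 16.7 ± 2.97 Mb (SD, n = 4 each), a difference of 0.227 Mb with a 95% interval from -5.83 to 4.90 (exact two-sided permutation test, p = 0.914, higher in 3 of 4 pairs). The direction of so small a difference turned when single libraries were left out, reaching -0.609 when Rb1L/L replicate 3 was dropped and 1.61 when its replicate 1 was. Within covered DNA the libraries listed 128 to 172 sites per Mb.

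**Figure D1:**
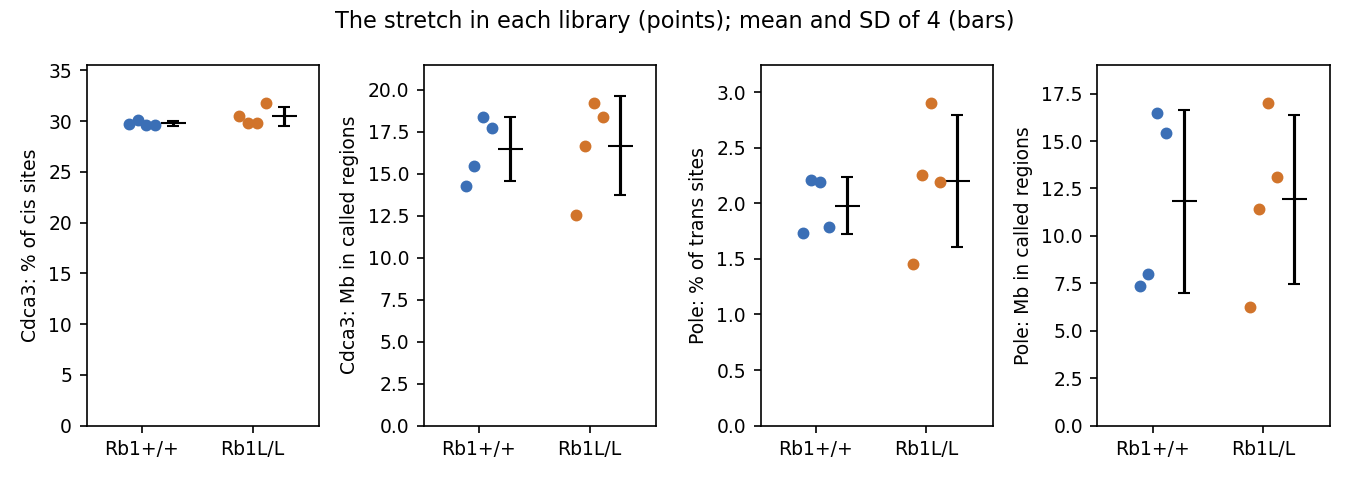
Each point is 1 library and each bar the mean and SD of 4 libraries; the panels give the percentage of cis or trans sites in the 40 Mb and the Mb covered by called regions, by genotype. The cis shares of Cdca3 lie between 29.6% and 31.8%, while the covered length and both Pole measures overlap widely between genotypes.

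The Cdca3 contacts formed blocks separated by empty DNA. Regions of the 8 libraries that overlapped by at least 1 bp merged into 16 blocks, 8 of them called in all 8 libraries. Over the whole of chromosome 6, 55.8% of 52 merged regions were called in all 8, so recurrence in the 40 Mb was close to that of the chromosome. The 8 recurrent blocks held 93.8% of the listed sites. Of the other blocks, 2 were called in 5 to 7 libraries, 4 in 2 to 4 and 2 in 1. Blocks in any library spanned 22.7 Mb, 56.8% of the 40 Mb, and 11.2 Mb (28%) lay inside called regions of all 8. A region's border lay a median of 161 kb outside its outermost listed site, so block borders are coarser than the sites.

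**Figure D2:**
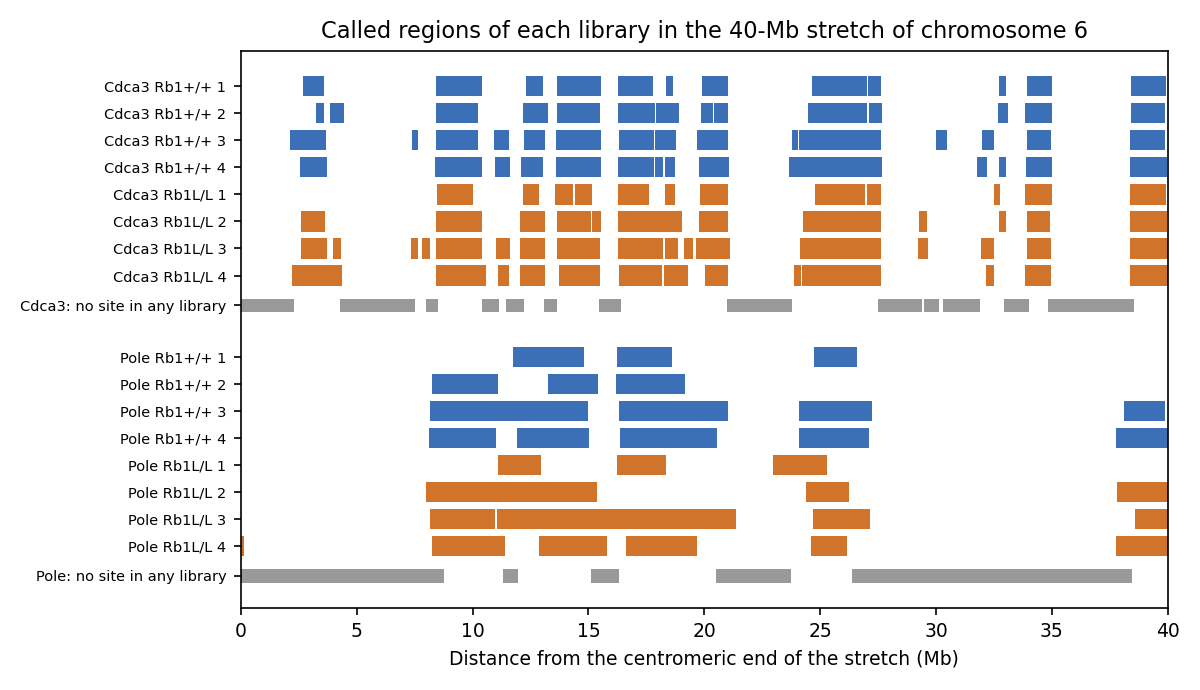
Each row is 1 library; bars are called regions by distance in Mb from the centromeric end of the 40 Mb, blue for Rb1+/+ and orange for Rb1L/L, and grey bars are stretches of at least 500 kb with no site in any of a viewpoint's 8 libraries. The 8 recurrent Cdca3 blocks line up over both genotypes, and the Pole regions lie mostly over the same DNA.

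The block nearest to the promoter, from 112366261 up to the telomeric border, and the block at 107.8 Mb varied least between libraries in the number of sites listed. Rb1+/+ replicates 1 to 4 listed 296, 276, 299 and 313 sites in it, and Rb1L/L replicates 1 to 4 listed 279, 318, 330 and 319. Of its 345 distinct sites, counting overlapping intervals of different libraries as 1 site, 223 (64.6%) were listed by all 8 libraries. The coefficient of variation over the 8 libraries was 6.44%, the low-yield Rb1L/L replicate 1 was no exception, and the genotypes overlapped. Per 1000 cis sites the block held 32.1 to 53.0 sites, highest in Rb1L/L replicate 1, so its evenness is one of site numbers only. Inside this block, the window from 113.0 to 113.5 Mb was the densest of the 40 Mb, with 144 to 152 of 155 distinct sites listed in each library. A window in which almost every site ever seen is listed cannot show a further rise in contact.

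A block of 1.16 Mb from 107826899 to 108985167 had the lowest coefficient of variation of all blocks, 5.92%, and lay between empty stretches. It held 148, 170, 164 and 183 sites in Rb1+/+ and 161, 168, 163 and 168 in Rb1L/L replicates 1 to 4. The largest number was 1.24 times the smallest, and 75 of its 209 distinct sites were in all 8 lists. Per 1000 cis sites it held 17.3 to 30.6. On its telomeric side lay the longest gap of the Cdca3 lists, 3.71 Mb from 108817693 to 112531132. On its centromeric side 1.06 Mb were empty, from 106945676 to 108004072.

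The longest block, 4.00 Mb from 97664466 to 101666095, held the most sites. Rb1+/+ replicates 1 to 4 listed 469, 496, 700 and 775 sites in it, and Rb1L/L replicates 1 to 4 listed 425, 670, 738 and 615. The 3 low-yield libraries were the 3 lowest. All 973 distinct sites of the block gave 243 sites per Mb, of which 200 were in all 8 lists. The window at 99.0 to 99.5 Mb in this block and that at 83.0 to 83.5 Mb, in the block described next, were the second and the third densest, with 102 to 142 of 164 and 102 to 130 of 138 distinct sites per library.

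The block from 82392331 to 84558220, the most centromeric of the recurrent ones, was dense despite its distance. It held 337, 319, 362 and 377 sites in Rb1+/+ and 226, 407, 334 and 383 in Rb1L/L replicates 1 to 4. Only Rb1L/L replicate 1 stood low, and 163 of 469 distinct sites were in all 8 lists. Density did not fall steadily along the 40 Mb: this block averaged 158 listed sites per Mb and library, the 4.00-Mb block 153, the block at 107.8 Mb 143 and the one at the telomeric border 186.

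Between these lay 4 recurrent blocks that varied more with the library. The block from 86027692 to 87243002 held 75 to 185 sites per library, and that from 87544179 to 89560557 held 153 to 341. The block from 90257859 to 93519068 ranged from 148 in Rb1+/+ replicate 1 to 467 in Rb1L/L replicate 2, and that from 93661973 to 95101866 from 93 in Rb1+/+ replicate 1 to 224 in Rb1L/L replicate 3. In each of the 4 blocks the ranges of the genotypes overlapped. In all 8 lists were 15 of 229 (6.55%), 65 of 403 (16.1%), 64 of 658 (9.73%) and 27 of 278 (9.71%) distinct sites, in that order. Over chromosome 6 the share was 17.0%, so the second of these blocks was near it and the others were below.

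**Figure D3:**
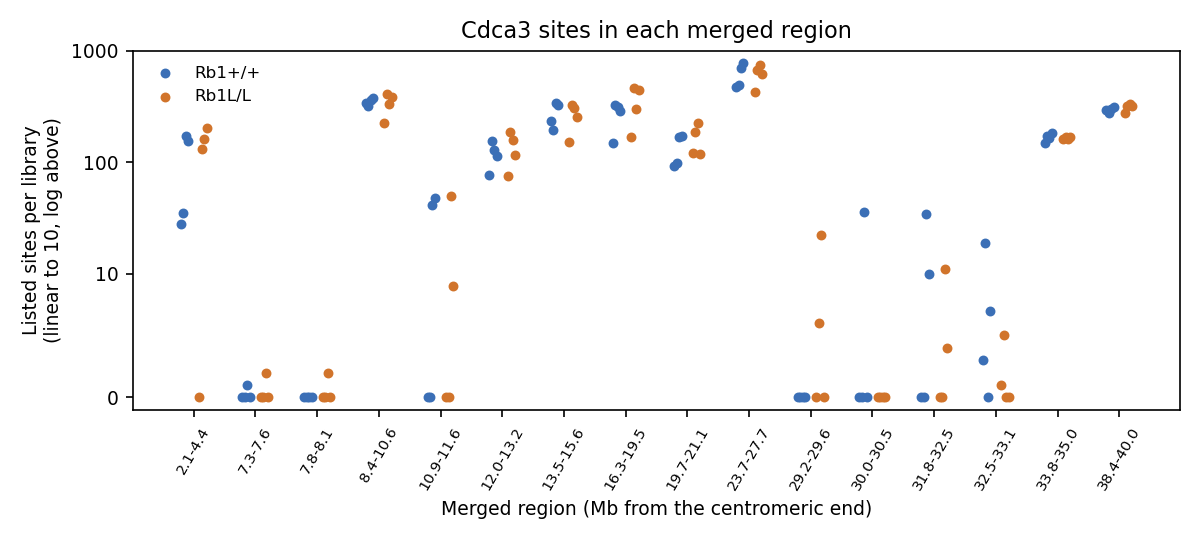
Listed sites per library (points, 4 per genotype, linear up to 10 and logarithmic above) in each of the 16 merged Cdca3 blocks, ordered by distance in Mb from the centromeric end. The 2 tightest blocks hold 148 to 183 and 276 to 330 sites, and blocks outside the recurrent 8 drop to 0 in 1 or more libraries.

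The 8 blocks outside the recurrent set were thin or patchy. The block from 76121282 to 78445969, far on the centromeric side, was called in all libraries but Rb1L/L replicate 1. It held 28, 35, 172 and 156 sites in Rb1+/+ and 0, 131, 160 and 202 in Rb1L/L replicates 1 to 4, with means of 97.8 ± 76.8 and 123 ± 87.2 (SD, n = 4 each), so the genotypes overlapped and single libraries lay far from their own mean. None of its 383 distinct sites was in all 8 lists. Without Rb1L/L replicate 1 it joins the recurrent set, which then has 9 blocks.

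At 2 places the same replicate numbers of both genotypes had the call. The block from 84941669 to 85611450 was called in replicates 3 and 4 of both genotypes, with 41 and 48 sites in Rb1+/+ and 50 and 9 in Rb1L/L, and replicates 1 and 2 listed 0 sites there. The block from 105752663 to 106493640 was called in the same 4 libraries, with 34, 10, 11 and 4 sites in that order. Rb1L/L replicate 2, which listed the most sites of all Cdca3 libraries, had 0 in both. Directly beside the latter, the block from 106512150 to 107086938 was called in Rb1+/+ replicates 1, 2 and 4 and Rb1L/L replicates 1 and 2, with 1 to 19 sites. The regions recurred there more than the sites did: 50 of 54 distinct sites in the former and 19 of 25 in the latter were in 1 list only. The part of replicate number and of yield in this pattern was not tested.

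The remaining blocks rest on few libraries. That from 103221940 to 103648966 held 6 and 22 sites in Rb1L/L replicates 2 and 3, and that from 103980227 to 104462289 held 36 in Rb1+/+ replicate 3. A pair of short blocks near 81 to 82 Mb, from 81339540 to 81646012 and from 81828458 to 82146858, held 1 or 2 sites in replicate 3 of one or both genotypes. A block was counted as leaning to a genotype when 3 or more of its libraries, and no more than 1 of the other genotype's, had the call, and 0 of 16 blocks leaned. Over chromosome 6 this held for 0% of merged regions towards Rb1+/+ and 1.92% towards Rb1L/L.

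Much of the 40 Mb was empty of Cdca3 contacts. In 13 gaps of at least 500 kb, 20.8 Mb in all (51.9%), none of the 8 libraries listed a site. After the gap of 3.71 Mb, the next longest ran from 78283202 to 81496923 (3.21 Mb) and from 94965582 to 97802334 (2.84 Mb). Those from 74000001 to 76282207 (2.28 Mb, cut by the border) and from 101498873 to 103399241 (1.90 Mb) followed. The other 8 gaps were shorter, down to 0.522 Mb. How many HindIII sites and mappable bases the gaps hold was not measured here, so an empty stretch is one without listed sites, not one shown to be without contact.

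Most distinct sites in cis were seen more than once. The Cdca3 libraries listed 4147 distinct sites in the 40 Mb, of which 3419 (82.4%) were in at least 2 libraries and 3147 (75.9%) in both genotypes. All 8 libraries listed 832 (20.1%), where chromosome 6 as a whole had 17.0% of its 14738 distinct sites. Sites in 1 library only came to 728 (17.6%). Of a single library's own sites, 1.04% to 6.37% were seen in no other library. In the 11.2 Mb inside called regions of all 8 libraries, 2812 distinct sites gave 251 per Mb, and a library listed from 56.7% of them in Rb1L/L replicate 1 to 84.2% in Rb1L/L replicate 2. Rb1+/+ replicates 1 to 4 listed 61.0%, 68.1%, 78.3% and 80.1% of these sites, so the fill of common blocks followed the number of cis sites a library listed, but for the near-equal Rb1+/+ replicate 4 and Rb1L/L replicate 3 (80.0%).

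In all 4 Rb1+/+ and 0 Rb1L/L libraries were 3 of the 4147 sites, and 2 showed the opposite. The share of such sites over chromosome 6 was not computed, so these counts cannot be called few or many. By the leaning rule above, applied to sites, 103 (2.48%) leaned to Rb1+/+, against 2.94% over chromosome 6. In the opposite direction there were 188 (4.53%), against 4.47%. Both shares are near the background of the chromosome.

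**Figure D4:**
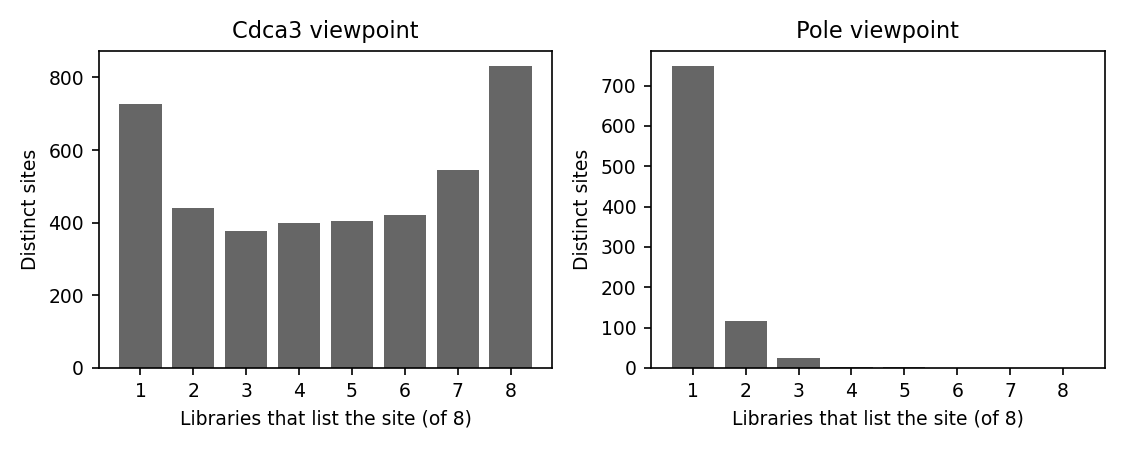
Bars count the distinct sites of the 40 Mb by the number of libraries, of 8, that list them, for each viewpoint. For Cdca3, 832 sites are in all 8 libraries, and for Pole 749 of 894 are in 1 library only.

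No window of the 40 Mb passed the test between genotypes. Sites were counted in 500-kb windows over all of chromosome 6 and compared by limma on a log2 scale, after adding 0.5 to each window's sites and scaling to 1000 cis sites of the library. Of 80 windows in the 40 Mb, 45 had the 8 sites needed. With Benjamini-Hochberg adjustment over 161 windows, limma called 0 (0% of the chromosome in either direction), and 0 of the 45 had an unadjusted p under 0.05, against 4 of the 161. No other tool was run. In the 45 windows 17 estimates were above 0 and 28 below, with a median log2 fold change of -0.06, against -0.02 over all 161. In the 25 windows with sites in all 8 libraries, the median 95% interval was ± 0.44 and 18 intervals lay within 1 log2 unit of no change. Over all 45 it was ± 1.81, so changes of a few fold in sparse windows were not detectable. In the densest windows a ceiling limits what can be seen. Libraries listed 73.9% to 94.2% of the distinct sites at 83.0 to 83.5 Mb and 92.9% to 98.1% at 113.0 to 113.5 Mb. A narrow interval there does not show equal contact.

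The windows nearest to the threshold are values that did not pass. The window from 86.0 to 86.5 Mb, at the edge of a recurrent block, held 1, 30, 24 and 44 sites in Rb1+/+ and 33, 62, 59 and 52 in Rb1L/L replicates 1 to 4. Per 1000 cis sites, the scale that was tested, these were 0.162, 4.33, 2.58 and 4.71 in Rb1+/+ and 6.27, 6.44, 6.28 and 6.26 in Rb1L/L. On that scale the genotypes did not overlap, the Rb1L/L libraries lay close together and Rb1L/L was higher in 4 of 4 pairs. It was the only one of the 45 windows without overlap, and over chromosome 6 such windows made up 2.48% with Rb1L/L higher and 1.24% with it lower. Its log2 fold change was 1.74 ± 0.859 (SE, limma adjusted p = 0.955). The next windows in this direction, at 93.0 to 93.5 and 92.5 to 93.0 Mb, stood at 2.92 and 1.504 on the same scale. The former rests on 18 and 46 sites in Rb1L/L replicates 3 and 4 alone. In the other direction, the windows at 97.5 to 98.0 and 89.0 to 89.5 Mb and the one inside the block that begins at 103980227 had -1.61, -1.07 and -1.57. The first held 1 and 13 sites in Rb1+/+ replicates 3 and 4 and the last 36 in Rb1+/+ replicate 3, with 0 in all other libraries. Where a library lists 0, the fold change depends on the added 0.5.

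**Figure D5:**
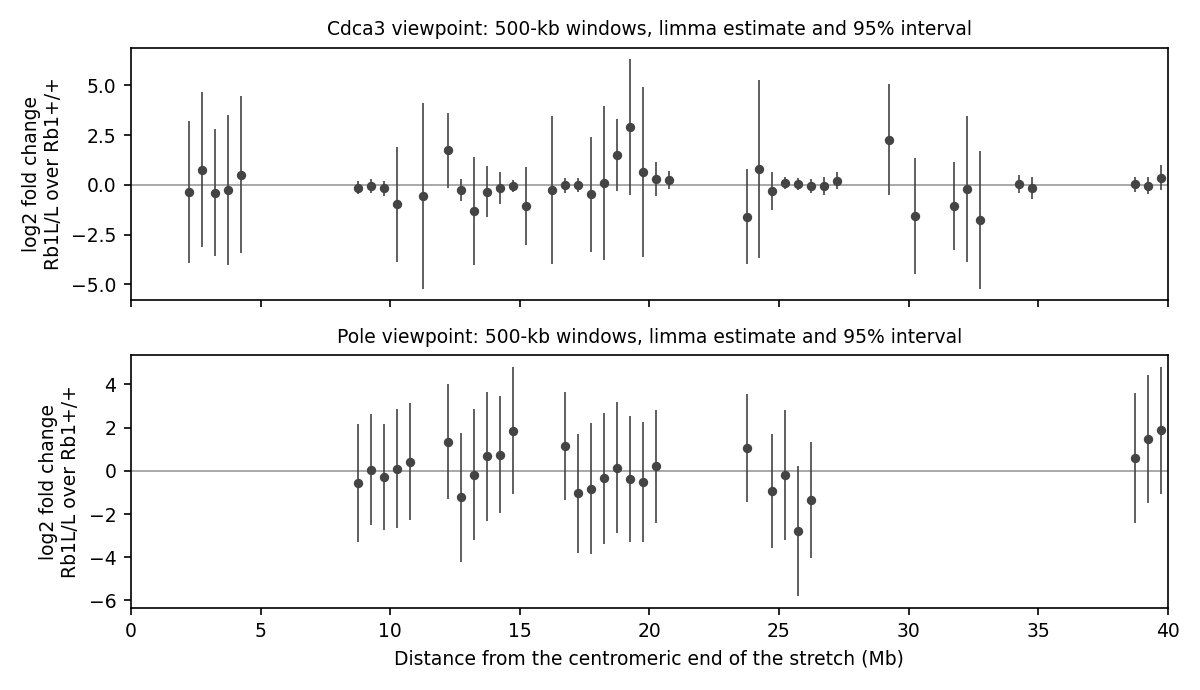
Points are log2 fold changes, Rb1L/L over Rb1+/+, of 500-kb windows by distance in Mb from the centromeric end, with limma's 95% intervals as bars, for Cdca3 (45 windows) and Pole (27 windows). The narrow Cdca3 intervals lie in the recurrent blocks and near 0, and every interval drawn includes 0.

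Inside the 40 Mb, contacts were spread over both the near and the far part in all 8 libraries. The nearer 20 Mb, from 94 Mb on, held 55.0%, 50.7%, 49.4% and 52.1% of the stretch's sites in Rb1+/+ and 61.1%, 46.9%, 51.6% and 46.5% in Rb1L/L replicates 1 to 4. The highest share was in Rb1L/L replicate 1, which listed 0 sites in the far block at 76 Mb. Means were 51.8% ± 2.40 and 51.5% ± 6.81 (SD, n = 4 each). The difference of -0.309 points had a 95% interval from -8.56 to 11.7 (exact two-sided permutation test, p = 0.971, higher in 2 of 4 pairs), and it turned positive, up to 1.38, when Rb1L/L replicate 4 was dropped, as it did without Rb1+/+ replicate 1 or Rb1L/L replicate 2. Without Rb1L/L replicate 1 it was -3.51.

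The 40 Mb were denser in listed cis sites than the more distant centromeric DNA and sparser than the telomeric DNA on the other side of the promoter. Density was 60.5 ± 12.5 sites per Mb in the 40 Mb and 39.3 ± 10.1 below 74 Mb (SD, n = 8 libraries of both genotypes). The difference within a library was 21.2 ± 3.58 sites per Mb, from 16.2 to 26.1, and positive in 8 of 8 libraries (exact two-sided sign permutation test, p = 0.00781, the smallest it can give). In the most telomeric 14.9 Mb with listed sites the density was 85.5 ± 19.7, and the 40 Mb differed from it by -25.0 sites per Mb (the same exact sign permutation test, p = 0.00781). Distance to the promoter differs between these stretches and cannot be told apart from other differences between them. A fall in contact with distance was known beforehand, so the first test describes only how repeatable the contrast was over libraries.

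From the Pole promoter, in trans, the same DNA was contacted thinly. Rb1+/+ replicates 1 to 4 listed 55, 90, 156 and 156 sites in the 40 Mb, and Rb1L/L replicates 1 to 4 listed 38, 178, 258 and 142. As a share of trans sites these were 1.73%, 2.21%, 2.19% and 1.79% in Rb1+/+ and 1.45%, 2.26%, 2.90% and 2.20% in Rb1L/L. Both the lowest and the highest share were in Rb1L/L cells. Means were 1.98% ± 0.257 and 2.20% ± 0.592 (SD, n = 4 each), a difference of 0.221 points with a 95% interval from -0.758 to 1.17 (exact two-sided permutation test, p = 0.543, higher in 3 of 4 pairs). Without Rb1L/L replicate 3 it was -0.0119, and without Rb1L/L replicate 1 it was 0.470. With only sites whose deposited value was below 0.01 it was 0.956. Of the Pole sites on chromosome 6, 25.2% to 37.2% per library lay in the 40 Mb, which make up 27.5% of the span from the first to the last site listed by Cdca3 on that chromosome.

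Pole regions were longer, emptier and less repeatable than the Cdca3 blocks. They covered 7.37, 7.98, 16.5 and 15.4 Mb in Rb1+/+ and 6.25, 11.4, 17.0 and 13.1 Mb in Rb1L/L replicates 1 to 4, at 6.08 to 15.6 sites per covered Mb. Their borders lay a median of 819 kb outside the outermost site, so little of a region's length is marked by sites. Mean lengths were 11.8 ± 4.80 and 11.9 ± 4.45 Mb (SD, n = 4 each). The difference was 0.122 Mb with a 95% interval from -10.2 to 9.61 (exact two-sided permutation test, p = 0.971), and reached -1.56 when Rb1L/L replicate 3 was dropped and 2.02 when its replicate 1 was. The genotype difference in covered length did not differ detectably between the anchors: the Pole minus Cdca3 value of each pair member differed by -0.105 Mb between genotypes, with a 95% interval from -4.39 to 5.26 (exact two-sided permutation test, p = 0.971). It was 0.860 without pair 4.

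The Pole regions merged into 4 blocks. One of them, from 81986991 to 95364283, was called in all 8 libraries; of all 276 merged trans regions of Pole, 10.5% were. It held 44, 90, 118 and 85 sites in Rb1+/+ and 15, 110, 239 and 99 in Rb1L/L replicates 1 to 4, and yet no base pair of the 40 Mb was covered in all 8. The block from 96984619 to 101220172 was called in all libraries but Rb1+/+ replicate 2, with 2 to 34 sites where called. That from 111769217 to the telomeric border was called in Rb1+/+ replicates 3 and 4 and Rb1L/L replicates 2, 3 and 4. It held 4 and 38 sites in those Rb1+/+ libraries and 56, 9 and 41 in those Rb1L/L libraries, in that order. The 3 libraries without it were the 3 of lowest yield. The fourth, up to 74137778, is the end of a region of Rb1L/L replicate 4 and holds no site of the 40 Mb. None of the 4 leaned to a genotype by the rule above, which over all trans regions picked 0.362% towards Rb1+/+ and 2.90% towards Rb1L/L.

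Single trans sites seldom recurred. Of 894 distinct Pole sites, 749 (83.8%) were in 1 library only, 145 in at least 2 and 0 in all 8, where 0.00249% of all trans sites of Pole were in all 8. By the leaning rule 3 sites leaned to Rb1+/+ (0.336%, against 0.273% over all trans sites), and 1 to Rb1L/L (0.112%, against 0.296%).

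By limma, 0 of 27 tested Pole windows in the 40 Mb passed, with adjustment over 1346 trans windows (0% called in either direction). None of the 27 had an unadjusted p under 0.05, against 31 of the 1346. Per 1000 trans sites the genotypes overlapped in all 27 windows, where over all trans windows 0.371% had Rb1L/L wholly higher and 0.446% wholly lower. The densest were 83.5 to 84.0 Mb, with 0 to 20 sites per library, then 83.0 to 83.5 and 113.0 to 113.5 Mb. The estimate nearest to the threshold was the 500-kb window that begins at 99.5 Mb, with 10, 0, 14 and 11 sites in Rb1+/+ and 0, 0, 4 and 0 in Rb1L/L replicates 1 to 4 (log2 fold change -2.79 ± 1.54, SE, limma adjusted p = 0.896). The window that ends at 100.5 Mb and the one that begins at 86.5 Mb had -1.36 and -1.23, and those that begin at 113.5, 88.5 and 86.0 Mb had 1.88, 1.85 and 1.35. The median 95% interval was ± 2.79, so these data could not show a change of a few fold in trans.

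Both promoters met largely the same parts of the 40 Mb. Of the 894 Pole sites, 852 (95.3%) lay inside a region called for Cdca3 in some library, and 711 were themselves listed for Cdca3, 79.5% of the Pole sites and 17.1% of the Cdca3 sites. Of DNA in any called region, 16.1 Mb were common, 80.7% of the Pole and 70.9% of the Cdca3 length. These shares stand against regions that, in any library, already made up 56.8% of the 40 Mb for Cdca3 and 50.0% for Pole. Cdca3 regions also reach a median of 161 kb past their outermost sites, which adds to the share of Pole sites inside them. Cdca3 sites that Pole also listed were in a median of 6 Cdca3 libraries, and those that Pole did not list in 4. The libraries share MEF pair identifiers and restriction sites, so the lists are not independent, and no test was made.

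The gaps coincided as well. Pole had 5 gaps of at least 500 kb, 25.9 Mb in all, the longest from 100392490 to 112455062 (12.1 Mb) and from 74000001 to 82772202 (8.77 Mb). The others ran from 94514411 to 97734972 (3.22 Mb), from 89106799 to 90317413 and from 85295239 to 85943177. Empty in both sets were 19.0 Mb, 91.4% of the Cdca3 and 73.2% of the Pole gap length. For reference, Pole gaps made up 64.8% of the whole 40 Mb and Cdca3 gaps 51.9%. The DNA from 94965582 to 97734972 (2.77 Mb) and from 108817693 to 112455062 (3.64 Mb) was thus listed by none of the 16 libraries. The sets differed at 2 places in particular. In the longest Pole gap, Cdca3 libraries listed 303 to 453 sites each, among them the block at 107.8 Mb, and in the centromeric Pole gap 24 to 245, among them the block at 76 Mb. In the other direction, the Cdca3 gap from 87092258 to 87650652 held 40 distinct Pole sites from 6 of 8 libraries.

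Called DNA in the 40 Mb overlapped to a similar mean degree within and between genotypes. For Cdca3, base pairs covered in both of a pair of libraries over those covered in either came to 74.9% ± 7.87 over 12 pairs of one genotype and 76.4% ± 6.15 over 16 pairs of different genotype (SD over pairs, which share libraries). Among pairs of different genotype, the 4 with the same MEF pair number had 80.2% ± 1.73 and the 12 with other numbers 75.1% ± 6.61. All 8 pairs of different genotype drawn within replicates 1 and 2 or within 3 and 4 had 80.2% ± 2.89. Over both genotypes the overlap was 80.0% ± 4.07 within these sets (12 pairs) and 72.6% ± 6.88 across them (16 pairs). The labels name no such sets, which match the calls at the 2 places described above. Libraries differed across the sets. With replicates 3 and 4, Rb1L/L replicate 2 overlapped at 76.9% to 84.2% and the low-yield Rb1L/L replicate 1 at 61.0% to 67.6%. Rb1+/+ replicates 1 and 2 had 70.2% to 80.2%. The part of yield was not tested. For Pole the values were 45.2% ± 20.6 and 48.3% ± 19.5 within and between genotypes, and 52.1% ± 25.2 and 43.1% ± 13.9 within and across the sets. Pole pairs of different genotype had 56.9% ± 23.6 with the same MEF pair number and 45.4% ± 18.1 with other numbers. These are descriptions without a test, and unequal covered lengths limit such an overlap.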

How the data were processed

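The data are 16 4C-seq libraries, 4 per genotype and viewpoint. Per the labels' protocols, chromatin was crosslinked in 1% formaldehyde, cut with HindIII, ligated, cut with NlaIII and ligated again, and 3.2 µg of template in 16 PCR reactions were pooled for sequencing. The authors deposited 2 lists per library in BED coordinates: positive sites, whose value column holds a p-value or q-value below 0.05 (which of them is not settled), and significant regions with no score. Other columns of the deposited lists are positions. Coordinates are in mm9 per the submitters' processing notes. For aligner and caller, names were not given in the sources used. The lists hold no read counts, so depth and counting error are unknown.

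Sites were taken as listed and matched between libraries where intervals overlapped. Regions were clipped to 74 to 114 Mb and merged at 1 bp overlap. Single values were compared by exact two-sided permutation tests over 70 assignments (95% intervals by inverting the test), and within-library differences over 256 sign assignments. Windows were compared by limma 3.58.1 in R 4.3.3 (eBayes with trend, windows with at least 8 sites). The limma step was also run on simulated counts. These lacked the ceiling that a window's restriction sites set, so that run does not give error rates for these lists. Python 3.11.15, numpy 2.4.6 and pandas 2.3.3 were used. The named windows were the 3 densest and, in each direction, the 3 of smallest p per viewpoint, and every merged region and the 5 longest gaps per viewpoint were named. The stretch and the tests were chosen with earlier results of these data known. Alternatives were another pseudocount, window size, filter, denominator and region definition, the MEF pair as a block, and leaving out each library.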

Additional observations from a re-analysis of the deposited data

How the results depend on the processing

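No difference between genotypes passed its test under the alternatives that kept all 8 libraries unpaired. With 1 library left out, no share or covered length passed the exact permutation test either. The smallest p from that test was 0.0571, for the Cdca3 share without Rb1L/L replicate 2 (0.923) or replicate 3 (0.916). The density difference from the DNA below 74 Mb, whose direction was foreseen, recurred under both alternatives that kept this reference. The signs of the small genotype differences were not stable. For Cdca3, the share of cis sites differed by -0.00658 points over sites with a deposited value under 0.01 and by -0.635 as a share of all sites, and by 0.268 to 0.923 without single libraries. The covered length differed by -0.609 to 1.61 Mb without single libraries. The share from 94 Mb on differed by 1.15 points over sites with a value under 0.01, and by -3.51 to 1.38 without single libraries. For Pole, the share of trans sites differed by -0.0119 to 0.470 points and the covered length by -1.56 to 2.02 Mb without single libraries. The Pole minus Cdca3 value was 0.186 Mb with runs of sites joined over 250 kb in place of called regions, and -0.892 to 0.860 without single pairs. The density difference was -25.0 sites per Mb against the most telomeric 14.9 Mb, and 20.5 to 21.9 against that below 74 Mb without single libraries. Counted as intervals of at least 100 kb covered in all 8 libraries, there were 13 recurrent blocks for Cdca3 and 0 for Pole. Without single libraries there were 8 to 9 and 1 to 2. The cause of these shifts was not tested, beyond the different construction of each measure.

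Libraries with the same MEF pair number did not all deviate together from their group means over windows. Their correlations ran from -0.105 to 0.291 for Cdca3 and -0.0468 to 0.166 for Pole. By this measure 3 and 2 of 8 libraries were closest to their own number. The main tests used no block, and these correlations cannot show that the members of a pair are independent. With the replicate block, a sign permutation within the 4 MEF pairs (smallest possible p = 0.125) gave p = 0.375 for the Cdca3 share, 0.75 for its covered length, 1 for its share from 94 Mb on, and 0.375 and 1 for the Pole share and length. limma with the MEF pair as a block called 0 windows at either viewpoint, as did all other window settings, with 0 to 2 windows at an unadjusted p under 0.05 for Cdca3 and 0 to 1 for Pole. Without depth, a list's length moves with its yield, and the densest Cdca3 window lists 92.9% to 98.1% of its known sites in each library.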

Other observations

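The listed intervals were not all as wide as a HindIII site. In the 40 Mb, intervals of exactly 6 bp made up 74.5% to 96.2% of the Cdca3 entries per library and 80.0% to 90.4% of the Pole entries, and the lowest share was in Cdca3 Rb1+/+ replicate 1. The cis share of Cdca3 sites in the 40 Mb over such intervals alone differed by 0.945 points between genotypes (exact permutation p = 0.114).

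Sites with a deposited value under 0.01 made up 79.9% to 88.6% of the Cdca3 entries in the 40 Mb and 18.9% to 69.0% of the Pole entries. Among the 48 groups of 4 values examined for a library standing apart (Dixon's test at the 95% level), 0 did, where chance would give about 2.4.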
